A study of Mus musculus with 4 samples.

Results

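The collagen genes of the mouse liver were followed over 15 weeks of a diet rich in fat and sucrose. Members were taken by name: every gene name on the array made up of Col, a number, the letter a and a number. That gave 43 genes of the 34761 gene names on the array, carried by 67 of 55681 probes. Col4a3bp, which encodes a ceramide transporter and no collagen, was left out by that pattern. Emid2, now called Col26a1, was not matched either, and both of its probes were below background on all 4 arrays. By structure, 11 members were fibrillar, 8 belonged to the basement membrane, 6 to type VI, and 18 to the remaining types.

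The samples were livers of male C57BL/6 mice, a common inbred strain, fed the diet from an age of 5 weeks and sampled after 0, 5, 10 or 15 weeks on it, when they were 5, 10, 15 and 20 weeks old. All the groups shared strain and sex, and the 0-week group had not yet eaten the diet. Each time point has a single array, while the design text mentions 4 mice at each of them, and whether an array carried 1 mouse or a pool is not stated. No age-matched mice on ordinary food are analysed here, so diet and age cannot be told apart. With 1 array for each time no difference between time points has a replicate check, and no test was possible.

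Collagens are extracellular proteins whose chains wind into a triple helix held together by a repeat of glycine followed by a pair of other residues. Fibrillar collagens assemble into the tensile fibres that make up scar tissue, type IV collagens form the sheet-like network of basement membranes, and type VI collagens form fine beaded filaments around cells. In the liver, fibrillar collagens come mainly from stellate cells and portal fibroblasts, and their build-up is the hallmark of fibrosis. Hepatocytes are a major source of type XVIII.

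Values are given as scaled signal: the log2 of the fluorescence intensity minus the 75th percentile of that array, taken over the 22125 probes well above background on all 4 arrays. A difference of 1 is therefore 2-fold, and genes at least 2-fold apart are called higher or lower. Probes differ in how brightly they bind, so each probe was compared only with itself on other arrays. Between 44.5% and 48.3% of spots were well above background, the highest share being that of the 15-week array. The 10 repeat spots that some probes have on an array had a median SD of 0.064 to 0.074 on the log2 scale, and of 0.163 to 0.178 for dim probes below a scaled signal of -4. This spread covers spots on 1 array and says nothing about differences between mice. All 8 hepatocyte markers were above background on every array, as fits the label of liver.

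Of the 43 collagen genes, 18 were above background on all 4 arrays, 5 on some of them, and 20 on none. The 20 comprised 5 fibrillar genes, Col2a1, Col5a2, Col11a1, Col11a2 and Col24a1. They also included Col4a3 of the basement membrane and the type VI genes Col6a4, Col6a5 and Col6a6. The other 11 were Col8a1, Col8a2, Col9a1, Col9a3, Col10a1, Col12a1, Col17a1, Col22a1, Col23a1, Col25a1 and Col28a1. A gene below background here was not detectable with its probe, which does not show that it was absent. The number of collagen genes above background was 21, 20, 19 and 22 at 0, 5, 10 and 15 weeks.

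Among the measured genes, the collagens stayed near their starting level at 5 weeks, some of the most familiar ones were lower at 10 weeks, and many were higher at 15 weeks. Against 0 weeks, 0 of 20 measured collagen genes were at least 2-fold higher at 5 weeks, where 2.45% of all 17094 measured genes were, and 1 was lower, where 1.46% of all genes were. At 10 weeks 1 of 19 was higher (2.91% of all genes) and 3 were lower (1.53% of all genes). At 15 weeks 11 of 20 were higher (7.61% of all genes) and 0 were lower (3.09% of all genes). From 10 to 15 weeks, 11 of 18 were higher (5.75% of all genes) and 0 were lower (2.4% of all genes). The 3 comparisons against 0 weeks share the 0-week array, and the last shares arrays with 2 of them, so they are not independent.

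**Figure D1:**
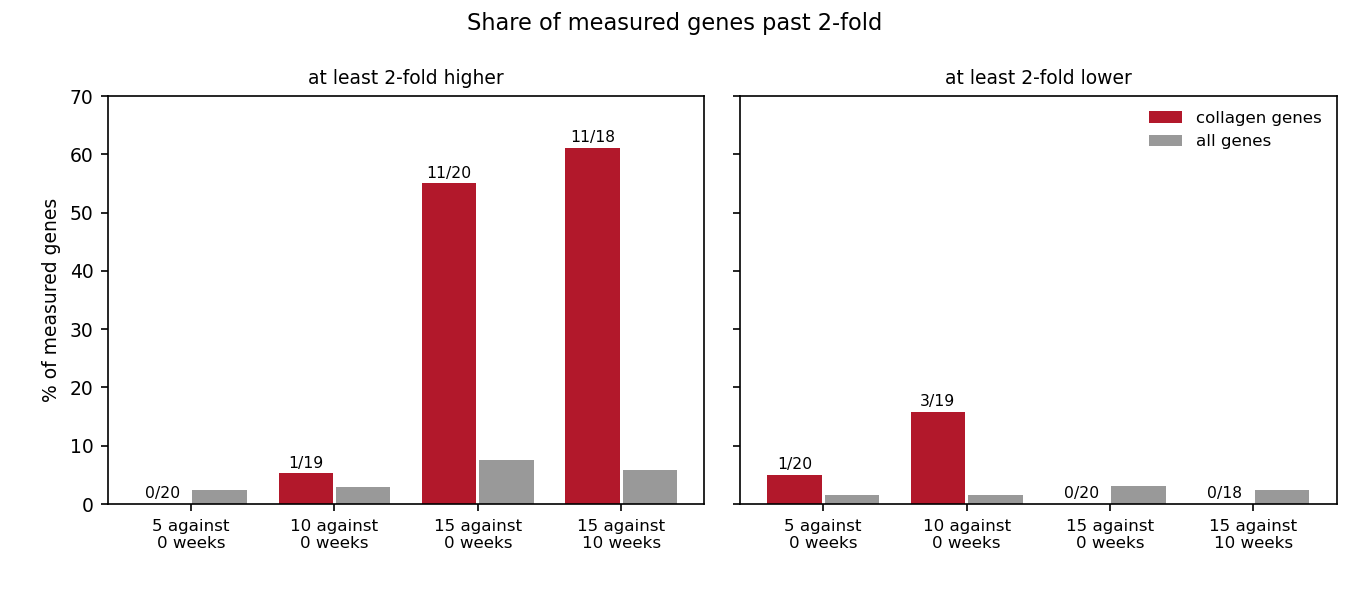
Share of measured genes at least 2-fold higher (left) or lower (right) in 4 comparisons of diet weeks (x axis), in % of measured genes (y axis, linear from 0); red bars are collagen genes, with counts above them, and grey bars all genes. The collagen bars reach 55.0% at 15 against 0 weeks and 61.1% at 15 against 10 weeks, beside 7.61% and 5.75% of all genes.

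The median difference of the measured collagens was -0.08 at 5 weeks, -0.19 at 10 weeks and 1.17 at 15 weeks against 0 weeks, and 1.66 at 15 against 10 weeks. The median over all measured genes lay between -0.05 and 0.01 in these comparisons. The classes stood apart in size. At 15 against 0 weeks the median was 1.87 for the fibrillar genes, 2.15 for type VI, 0.21 for the basement membrane genes and 0.15 for the remaining types. Taking in genes known only by a bound, the basement membrane median was 0.51, and over the type IV chains alone it was 0.72. At 10 against 0 weeks the basement membrane median was -0.57, and -0.90 over the type IV chains alone. Over all members, with genes below background taken in at their measured signal, the collagen median was 0.15 at 15 against 0 weeks and 0.31 at 15 against 10 weeks, where that of all genes was -0.21 and -0.20.

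**Figure D2:**
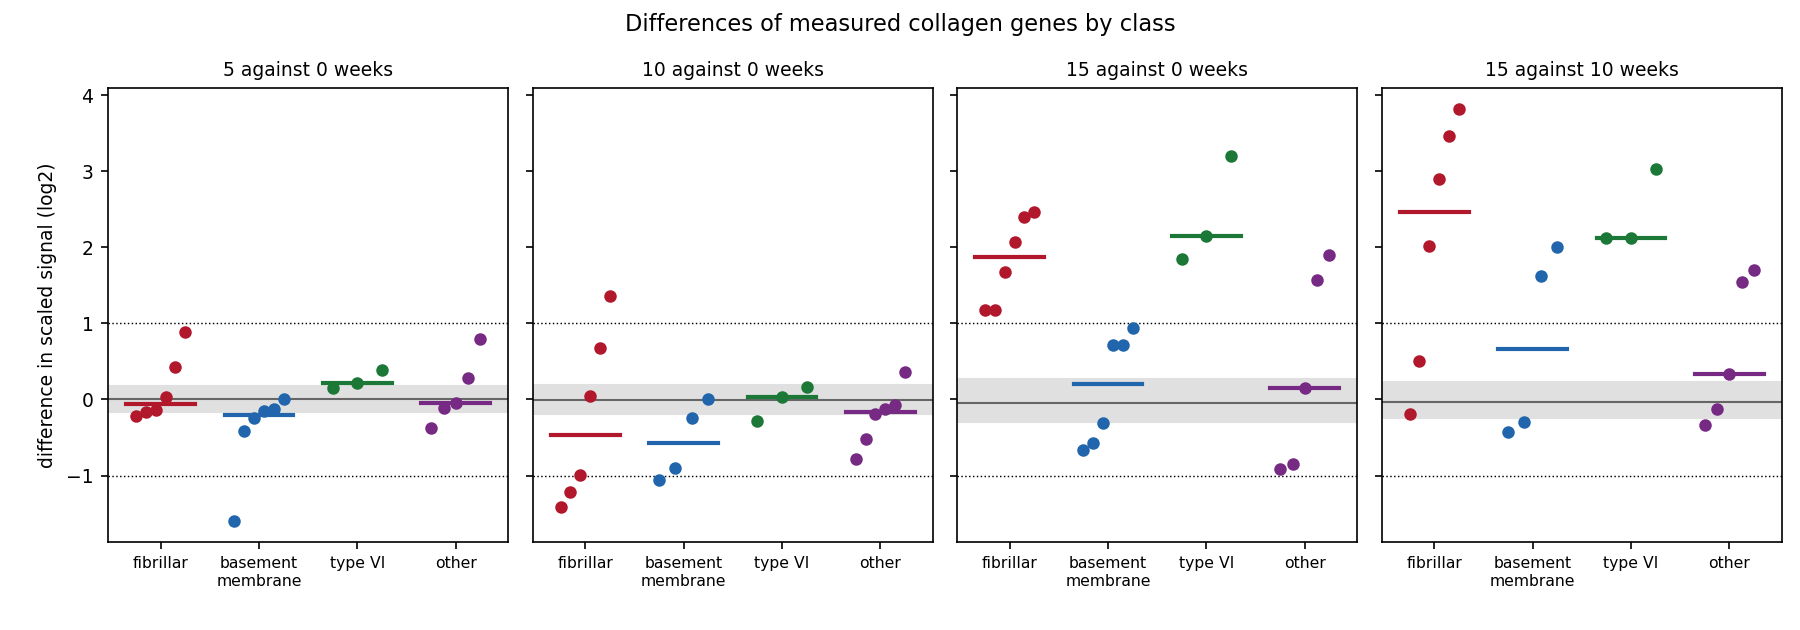
Difference in scaled signal (y axis, log2) of each measured collagen gene, 1 point per gene, by structural class (x axis) in 4 comparisons; coloured bars are class medians, the grey line and band the median and interquartile range of all genes, and dotted lines mark 2-fold. At 15 against 0 weeks all 6 fibrillar and all 3 type VI points lie above the upper dotted line, and all 6 basement membrane points lie between the dotted lines.

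Type I collagen, the main fibre protein of scar, is built from the chains of Col1a1 and Col1a2. Col1a1 (probe at chr11:94813115-94813174, mm9) had a scaled signal of -1.53 at 0 weeks, -1.76 at 5 weeks, -2.95 at 10 weeks and 0.87 at 15 weeks. Col1a2 (probe at chr6:4490619-4490678, mm9) stood at 0.88, 0.74, -0.35 and 2.55 at the same times. Both chains were thus steady at first, lowest at 10 weeks and highest at 15 weeks. Col1a1 was 2.67-fold lower at 10 weeks than at 0 weeks and 5.29-fold higher at 15 weeks than at 0 weeks. Col1a2 was 2.34-fold lower and 3.20-fold higher in the same comparisons. Between 10 and 15 weeks the step was 14.1-fold for Col1a1, the largest of any measured collagen gene in these comparisons, and 7.46-fold for Col1a2.

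Col3a1 encodes type III collagen, which joins type I in the fibres of soft tissues. Its probe (chr1:45405589-45405648, mm9) gave -0.89, -1.06, -1.88 and 1.58 at 0, 5, 10 and 15 weeks. The order of the arrays was that of the type I chains: 1.99-fold lower at 10 weeks, just inside the 2-fold limit (-0.99, and -1.10 with the array median), and 5.52-fold higher at 15 weeks, both against 0 weeks. The 15-week array was 11.0-fold above the 10-week array.

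The minor fibrillar genes did not share the low point at 10 weeks. Col5a1, whose type V collagen sits inside type I fibres and starts their assembly, stood at -4.06, -3.63, -4.01 and -1.98, so that 15 weeks alone stood apart, 4.21-fold above 0 weeks. Col5a3, another chain of type V, stood at -1.51, -1.48, -0.83 and -0.33, higher at 10 weeks than at 5 and higher again at 15, when it was 2.25-fold above 0 weeks. Col27a1, a fibrillar collagen best known from cartilage, stood at -5.48, -4.60, -4.11 and -4.30. It was the 1 collagen gene called higher at 10 weeks, by 2.58-fold, and at 15 weeks it was 2.26-fold above 0 weeks. Its signal was dim, and with another background correction these differences were 0.76 and 0.56 on the log2 scale, below 2-fold. Scaling by the 75th percentile of all spots put Col5a3 and Col27a1 at 0.97 and 0.98 at 15 weeks, just under 2-fold.

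**Figure D3:**
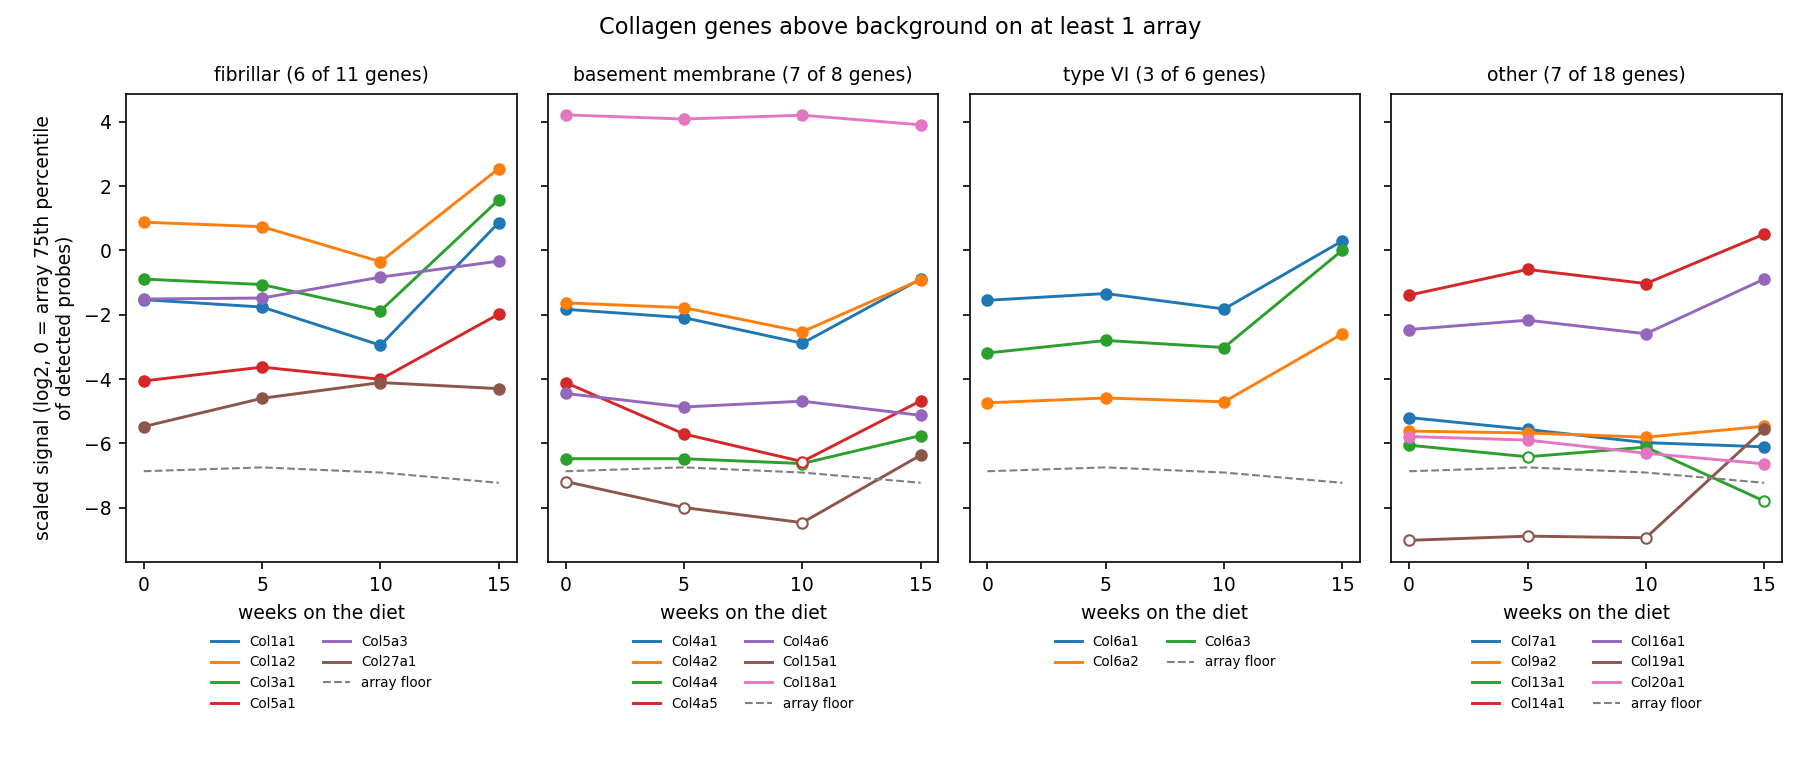
Scaled signal (y axis, log2, 0 being the array's 75th percentile of detected probes) of the 23 collagen genes above background on at least 1 array, against weeks on the diet (x axis), 1 panel per class; filled points are above background, open points are not, and the dashed line is the lowest signal among probes above background. The lines of Col1a1, Col1a2 and Col3a1 dip at 10 weeks and end highest at 15 weeks, those of type VI stay within 2-fold until 10 weeks, and Col18a1 stays between 3.91 and 4.22.

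The promoters of Col1a2, Col3a1 and Col6a1 are shown, since these genes were higher together and their letters can be compared. Of the 11 genes higher at 15 weeks they are those for which the RefSeq table (GRCm38.p6) has a single start that is also the gene's outer end. Each sequence holds the 250 bases before the start, on the gene's own strand, and capitals mark 4 motifs, searched on both strands. They are the CCAAT box, the TATA box core TATAA, the Sp1 protein box GGGCGG and the Smad protein box CAGACA.
Col1a2: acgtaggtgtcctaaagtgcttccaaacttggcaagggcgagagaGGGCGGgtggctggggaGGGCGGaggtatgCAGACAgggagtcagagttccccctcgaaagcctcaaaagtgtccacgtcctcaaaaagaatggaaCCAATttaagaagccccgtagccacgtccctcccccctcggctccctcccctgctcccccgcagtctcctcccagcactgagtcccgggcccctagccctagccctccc
Col3a1: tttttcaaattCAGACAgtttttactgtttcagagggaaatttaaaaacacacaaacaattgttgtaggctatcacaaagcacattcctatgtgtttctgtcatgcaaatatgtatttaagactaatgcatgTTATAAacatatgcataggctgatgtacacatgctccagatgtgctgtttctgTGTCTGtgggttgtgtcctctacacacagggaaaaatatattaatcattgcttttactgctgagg
Col6a1: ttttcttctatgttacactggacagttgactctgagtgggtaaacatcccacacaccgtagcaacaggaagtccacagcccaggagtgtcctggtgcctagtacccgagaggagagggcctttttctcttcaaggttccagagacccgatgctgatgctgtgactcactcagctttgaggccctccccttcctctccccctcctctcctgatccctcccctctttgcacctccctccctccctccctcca
The Col1a2 window (chr6:4505368-4505617, plus strand) held CCAAT once, GGGCGG at 2 places and CAGACA once. The Col3a1 window (chr1:45311288-45311537, plus strand) held CAGACA on each strand, and its TTATAA is TATAA and the same motif of the other strand overlapping. The Col6a1 window (chr10:76726045-76726294, minus strand) held none of these letters. Over all 32851 promoters of the table, here in the same 250 bases, CCAAT was in 33.8%, TATAA in 22.8%, GGGCGG in 32.7% and CAGACA in 17.1%. These matches are descriptions of the letters and do not show that a factor binds.

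All 3 measured type VI genes, which encode the chains of 1 filament, were higher at 15 weeks, and the probes used for them were within 2-fold until 10 weeks. Col6a1 stood at -1.55, -1.34, -1.82 and 0.30 at 0, 5, 10 and 15 weeks. Col6a2 stood at -4.74, -4.59, -4.71 and -2.59. Col6a3, whose long chain completes the common type VI molecule, stood at -3.19, -2.80, -3.02 and 0.01. Against 0 weeks, Col6a3 was 9.16-fold higher at 15 weeks, more than any other measured collagen gene, Col6a2 was 4.44-fold higher and Col6a1 3.60-fold higher. From 10 to 15 weeks these genes differed by 8.17-fold, 4.35-fold and 4.36-fold. A second Col6a2 probe stood at -6.79 at 0 weeks and -5.97 at 15 weeks and was not above background at 5 and 10 weeks. Averaging both probes gave Col6a2 -1.11 at 10 weeks, past 2-fold lower, and 1.48 in place of 2.15 at 15 weeks against 0 weeks, and normexp gave 1.52 in place of 2.12 at 15 against 10 weeks. With the brighter probes, at 10 weeks against 0 weeks all 3 lay between -0.28 and 0.17, where the type I chains were past 2-fold lower.

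Col4a1 and Col4a2 encode the chains of the type IV network found in nearly every basement membrane, including the vessels and ducts of the liver. Col4a1 (probe at chr8:11199009-11199068, mm9) stood at -1.83, -2.09, -2.89 and -0.89. Col4a2 (probe at chr8:11448840-11448899, mm9) stood at -1.63, -1.78, -2.53 and -0.91. Both were lowest at 10 weeks and highest at 15 weeks, as were the type I chains and Col3a1. Against 0 weeks Col4a1 was 2.08-fold lower at 10 weeks, and Col4a2 was 1.87-fold lower. With the normexp background correction the Col4a1 difference was -0.89 on the log2 scale, below 2-fold. At 15 weeks they were 1.92-fold and 1.65-fold above 0 weeks, inside the 2-fold limit, and 3.99-fold and 3.08-fold above 10 weeks.

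The Col4a1 probe was printed at 10 places on each array, which shows how exactly an array measures its own sample. Its spots ranged from -1.95 to -1.73 at 0 weeks, from -2.15 to -2.04 at 5 weeks (9 spots, 1 having been marked an outlier by the scanner software), from -2.96 to -2.79 at 10 weeks and from -0.98 to -0.81 at 15 weeks. No range overlapped another, and the SD within an array was at most 0.065. The spots share 1 labelled sample per array and are not replicates of a time point.

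**Figure D4:**
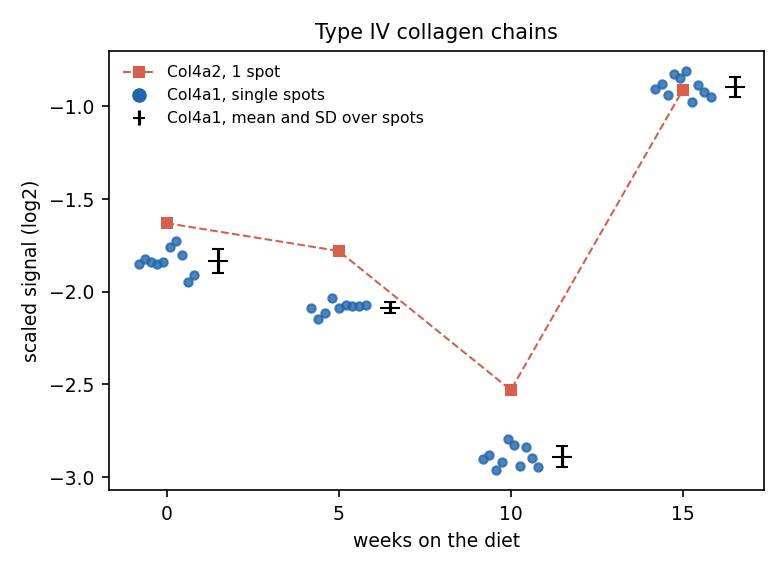
Scaled signal (y axis, log2) of the Col4a1 probe (blue, 1 point per spot, with mean and SD over spots in black) and of the single spot of the Col4a2 probe (red) against weeks on the diet (x axis). The Col4a1 spots of each array form a narrow band that does not overlap the band of any other array, lowest at 10 weeks and highest at 15 weeks; the levels of the Col4a1 and Col4a2 probes are not comparable with each other.

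Col4a1 and Col4a2 lie head to head, and in GRCm38.p6 their start sites on chromosome 8 are 21 bases apart on opposite strands. Col4a5 and Col4a6, which encode type IV chains of more restricted membranes, are also divergent neighbours, with starts 1343 bases apart on chromosome X. Col4a5 stood at -4.11 and -5.71 at 0 and 5 weeks, was not above background at 10 weeks and stood at -4.68 at 15 weeks. It was the 1 collagen gene called lower at 5 weeks, by 3.03-fold, a log2 difference of -1.60 that was -0.79, below 2-fold, with normexp. At 10 weeks it was at least 5.51-fold lower than at 0 weeks, and at 15 weeks at least 3.70-fold higher than at 10 weeks. Such bounds set the bright array against the lowest signal well above background on the dim array, or the dim probe's own signal where that is higher. They are not strict limits, since a probe called below background can read above that lowest signal. Col4a5 did so at 10 weeks, at -6.57 against -6.91. Col4a6 stood at -4.45, -4.87, -4.69 and -5.13 with its brighter probe, within 1.60-fold of 0 weeks. Its second probe stood at -6.25 at 0 weeks and -5.88 at 15 weeks and was not above background at 5 and 10 weeks. The Col4a6 probes disagreed in direction at 15 against 0 weeks, with -0.67 for the brighter and 0.37 for the second. Averaging them gave -1.33 at 10 against 0 weeks and 1.18 at 15 against 10 weeks, in place of -0.24 and -0.43. Those averages take in a second-probe signal of -8.67 at 10 weeks, below background, so they show no measured disagreement.

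Col4a4, a chain best known from the kidney filter, stood at -6.48 at 0 and 5 weeks and at -5.76 at 15 weeks, was not above background at 10 weeks, and was 1.64-fold higher at 15 than at 0 weeks and at least 1.82-fold higher than at 10 weeks. Col15a1, a basement membrane collagen with sugar side chains, was above background at 15 weeks only, at -6.37, which was at least 1.42-fold higher than at 0 weeks and at least 1.45-fold higher than at 10 weeks. Both genes were near the floor of the arrays. Col18a1, the precursor of the fragment endostatin, stood at 4.22, 4.09, 4.21 and 3.91, with all differences within 1.24-fold. A second Col18a1 probe stood at 3.89, 3.75, 3.90 and 3.60, in the same order of arrays apart from 0 and 10 weeks, which were level. Of the basement membrane genes, 0 of 6 were called higher at 15 against 0 weeks (7.61% of all genes). At 15 against 10 weeks 2 of 4 were (5.75% of all genes), with Col4a4, Col4a5 and Col15a1 left out as known only by bounds. With 6 genes, a count of 0 is near the share of all genes.

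Of the remaining types, Col14a1 and Col16a1, which encode collagens associated with fibres, were called higher at 15 weeks. Col14a1, whose product lies on type I fibres, stood at -1.39, -0.59, -1.03 and 0.51, with 15 weeks 3.74-fold above 0 weeks. Col16a1, which joins fibrils to their surroundings, stood at -2.46, -2.17, -2.59 and -0.89, with 15 weeks 2.97-fold above 0 weeks. From 10 to 15 weeks the Col16a1 difference was 1.70, and 0.82, below 2-fold, when its probes were averaged. The other Col16a1 probes in that average were below background at 10 weeks. Both genes were highest at 15 weeks, and neither was past 2-fold at 5 or 10 weeks. A second Col14a1 probe, at -3.91, -3.23, -3.68 and -2.10, had the same order of arrays and a difference of 1.80 at 15 against 0 weeks.

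That second Col14a1 probe and the Col15a1 probe lie in the collagen repeat itself, and are shown because their letters spell that repeat. Each has 60 bases read 5′ to 3′ on the plus strand, and capitals mark the glycine codons of the open frame.
Col14a1: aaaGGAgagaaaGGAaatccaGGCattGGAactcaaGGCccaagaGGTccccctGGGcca
Col15a1: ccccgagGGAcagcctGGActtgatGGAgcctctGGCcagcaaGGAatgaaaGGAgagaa
The Col14a1 probe (chr15:55347733-55347792, mm9) held 7 glycine codons and the Col15a1 probe (chr4:47283786-47283845, mm9) held 6, and in each of them 5 steps from one glycine to the next were 3 codons long. In the Col14a1 stretch the repeat was interrupted once, as is usual for collagens that are not fibrillar.

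The other genes of these types above background were dim, and 0 of those measured were called at 15 weeks. Col7a1, which encodes the anchoring fibrils of skin, stood at -5.20, -5.57, -5.98 and -6.11. Col20a1, a little-studied fibre-associated collagen, stood at -5.79, -5.90, -6.31 and -6.64. Both were lower at each later time, 1.87-fold and 1.81-fold below 0 weeks at 15 weeks, inside the 2-fold limit. When arrays were scaled by the 75th percentile of all spots, these differences were -1.11 and -1.05, past 2-fold. Col7a1 was also past 2-fold with the array median and quantile normalization, at -1.03 and -1.04, and Col20a1 with the mean of probes, at -1.20. The second Col20a1 probe in that mean was below background at 15 weeks. Col9a2, a cartilage collagen, stood at -5.62, -5.68, -5.81 and -5.47, within 1.27-fold in the comparisons made. Col13a1, a collagen that spans the cell membrane, stood at -6.06 and -6.12 at 0 and 10 weeks, was not above background at 5 and 15 weeks, and was at least 2.26-fold lower at 15 than at 0 weeks. Col19a1, a rare fibre-associated collagen, was above background at 15 weeks only, at -5.55, at least 2.50-fold higher than at 0 weeks. On that array 40.4% of its neighbouring spots stood apart, that is, were at least 2-fold above or below their median on the other arrays.

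Across the 18 genes above background on all 4 arrays, 8 were lowest at 10 weeks and highest at 15 weeks, namely Col1a1, Col1a2, Col3a1, Col4a1, Col4a2, Col6a1, Col9a2 and Col16a1. Of all 16683 such genes on the arrays, 8.51% had that order. The 2-fold span was met by 7 of the 8, all but Col9a2, against 2.51% of all genes. The highest value was at 15 weeks for 13 of the 18, against 30.2% of all genes. These shares describe 4 arrays and cover only the members bright enough to be ordered.

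Genes that make, process and bind collagen are given by list, each chosen with earlier results of these data known. Among genes that fold and export collagen, 4 of 9 measured were higher at 15 than at 0 weeks and 0 lower, with a median difference of 0.95. Serpinh1, the chaperone dedicated to collagen, stood at -3.18, -2.84, -2.96 and -1.23, flat until 10 weeks and 3.88-fold above 0 weeks at 15 weeks. Fkbp10, which helps collagen chains fold, stood at -2.93, -2.98, -3.65 and -1.46, lowest at 10 weeks, and was 2.77-fold above 0 weeks at 15 weeks. Sparc, a matrix protein that binds collagen, was 1.93-fold higher and Creb3l1, a transcription factor for collagen export, 2.03-fold higher.

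Among genes that trim and crosslink collagen, 6 of 10 measured were higher at 15 weeks and 0 lower, with a median of 1.19. Adamts2 and Adamts14, proteases that cut off the amino-terminal propeptide, were 4.17-fold and 4.76-fold higher. Pcolce, which speeds removal of the other propeptide, was 3.87-fold higher, and the crosslinking enzyme Loxl1 3.81-fold. Lox, the best-known crosslinker, was above background at 5 weeks only, at -0.44. Up to 34.0% of its neighbouring spots stood apart, taking the highest of the 4 arrays. Of the enzymes that hydroxylate and glycosylate collagen, 3 of 10 measured were higher and 0 lower, with a median of 0.24. Of these P3h3 was 3.26-fold, P4ha1 2.13-fold and Crtap 2.10-fold higher. Plod2, a lysyl hydroxylase, was above background at 10 and 15 weeks only and 30.6-fold lower at 15 than at 10 weeks. Up to 22.2% of its neighbouring spots stood apart on any array.

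Of the proteoglycans and glycoproteins that bind collagen, 5 of 11 measured were higher at 15 weeks and 0 lower, with a median of 0.81. Lum, which spaces fibrils, was 4.64-fold higher, Dpt, which aids fibril assembly, 3.49-fold, and Nid1, which links laminin to type IV collagen, 2.77-fold. Postn, a matrix protein of activated fibroblasts, was 2.33-fold lower at 10 weeks and 1.33-fold higher at 15 weeks. Of the laminins, the partners of type IV collagen, 2 of 8 were lower at 10 weeks, with a median of -0.62. At 15 against 0 weeks 2 of 8 were higher and 1, Lamb3, was 2.23-fold lower, with a median of 0.77, and 7 of 8 were higher at 15 than at 10 weeks, with a median of 1.28. Lama2 was 3.36-fold and Lama4 2.51-fold higher at 15 than at 10 weeks.

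Of the collagen receptors, 3 of 7 measured were higher at 15 than at 0 weeks, with a median of 0.11. Ddr1 and Ddr2, receptor kinases that bind collagen, were 4.26-fold and 2.38-fold higher. Ddr1 was near the floor at 0 weeks, at -6.12, and not above background at 5 and 10 weeks. The third was Lair1, an inhibitory receptor of immune cells, with up to 41.9% of its neighbouring spots standing apart on any array. Among genes of collagen breakdown and its inhibitors, 3 of 7 were higher at 15 weeks and 0 lower, with a median of 0.79. Ctsk, a lysosomal collagenase, was 3.79-fold higher and Mmp2, a gelatinase, 2.86-fold. Timp1, which inhibits matrix proteases, was not above background at 0 weeks and 18.6-fold higher at 15 than at 10 weeks.

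**Figure D5:**
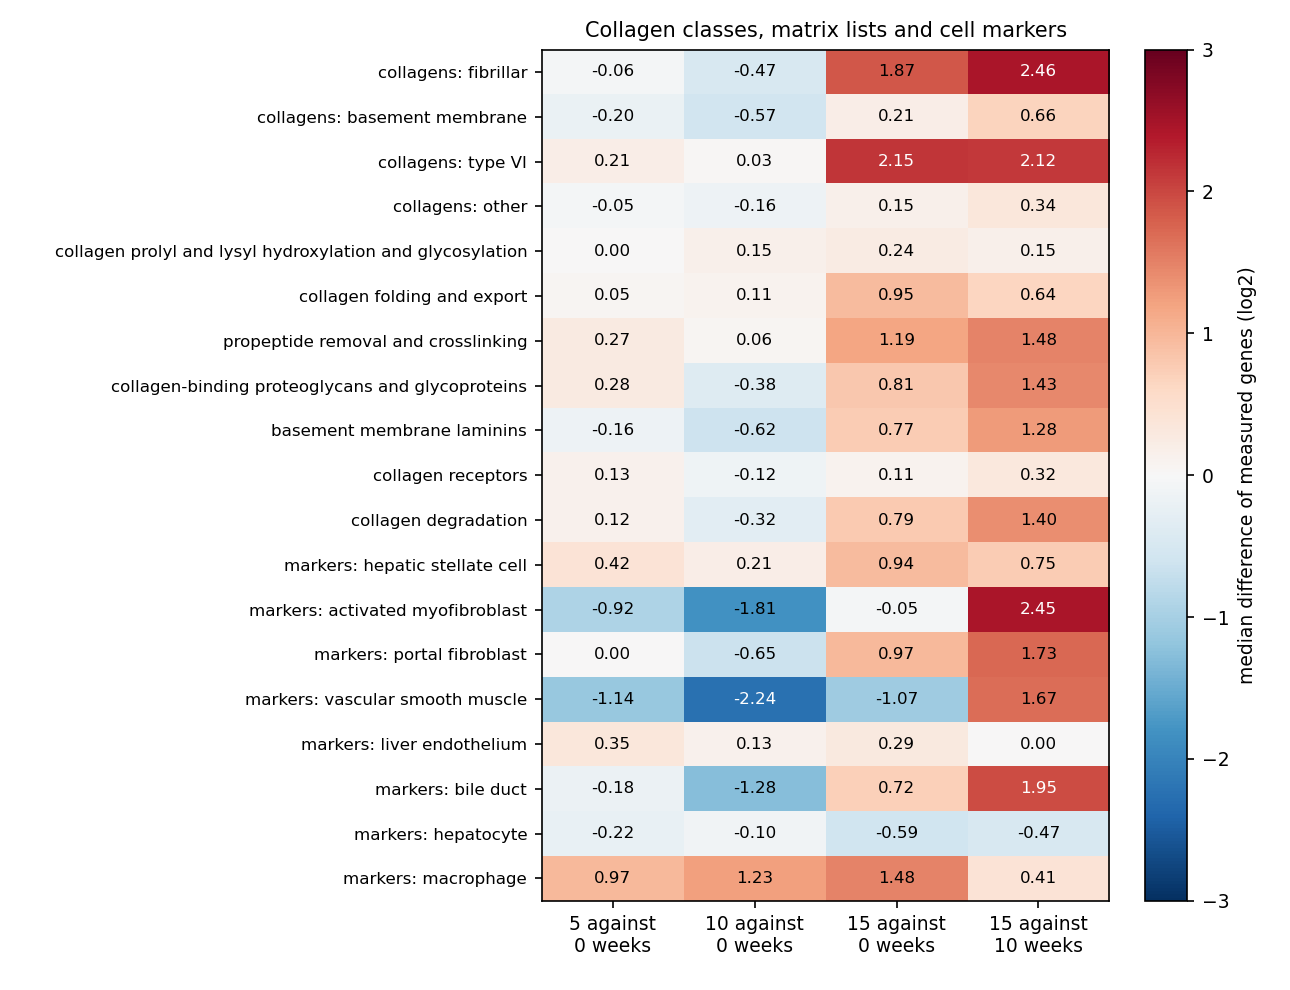
Median difference in scaled signal (log2, colour scale and printed values) of the measured genes of each collagen class, collagen-related list and cell marker list (top to bottom) in 4 comparisons (left to right). The fibrillar class goes from -0.47 at 10 against 0 weeks to 2.46 at 15 against 10 weeks, the myofibroblast markers go from -1.81 to 2.45 in the same comparisons, and the endothelial markers stay between 0.00 and 0.35.

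Markers of several cell types also differed between the arrays. In RNA from whole liver, fewer cells of a type and less RNA per cell cannot be told apart. Of 12 stellate cell markers, all measured, 0 were called at 10 weeks and 6 were higher at 15 weeks against 0 weeks, with medians of 0.21 and 0.94, and their summed signal was 15.1, 19.0, 15.6 and 20.8 times the array's 75th percentile at 0, 5, 10 and 15 weeks. Such sums add probes of unlike brightness and give most weight to the brightest, here Ecm1, which stood at 3.47, 3.70, 3.43 and 3.50. Ecm1 was level between 0 and 15 weeks, so the higher sum at 15 weeks came from other markers of the list. The vitamin A enzyme Lrat was 2.12-fold higher at 15 weeks, Pdgfrb, the growth factor receptor of these cells, 3.81-fold, and Cygb 3.53-fold. No stellate cell marker was thus past 2-fold at 10 weeks, where Col1a1 and Col1a2 were lower.

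The summed signals of the myofibroblast and smooth muscle markers were lowest at 10 weeks. Not every myofibroblast marker had that low point. Acta2, Tagln and Postn did, while Timp1 was below background at 0 weeks and stood at -5.87, -5.45 and -1.23 after. Acta2, the muscle actin of both cell types, stood at 0.78, -0.35, -3.49 and -0.71, 19.3-fold lower at 10 than at 0 weeks and still 2.82-fold lower at 15 weeks. Of the 7 myofibroblast markers 3 of 4 measured were lower at 10 weeks and 5 of 5 were higher at 15 than at 10 weeks, with sums of 4.81, 3.09, 0.888 and 4.22, and Cthrc1 was never above background. Of the 7 smooth muscle markers 3 of 4 measured were lower at 10 weeks, 3 of 6 were still lower at 15 weeks, and 4 of 4 were higher at 15 than at 10 weeks. Their sums were 6.13, 2.77, 0.904 and 3.30, and Lmod1 was never above background. At 15 weeks the summed signals of both lists were below those at 0 weeks, while Col1a1, Col1a2 and Col3a1 stood above theirs. Both sums follow mostly Acta2 and Tagln, which are on both lists. By gene, 1 of 4 measured myofibroblast markers was higher and 1 lower at 15 against 0 weeks, with a median of -0.05.

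Portal fibroblast markers had their lowest sum at 10 weeks and their highest at 15 weeks. Of 10, 2 of 7 measured were lower at 10 weeks, 4 of 8 were higher at 15 than at 0 weeks and 6 of 7 were higher at 15 than at 10 weeks, with sums of 1.22, 1.21, 0.848 and 2.48. Mfap4, a fibril protein of this list, was 2.76-fold lower at 10 weeks and 2.15-fold higher at 15 weeks, both against 0 weeks. Others differed: Gli1 was above background at 0 weeks only and Clec3b at 0 and 5 weeks only. Of the 7 bile duct markers 3 of 6 measured were lower at 10 weeks and 6 of 6 were higher at 15 than at 10 weeks, with sums of 1.28, 1.36, 0.405 and 1.83, and Cftr was never above background. The bile duct sum at 5 weeks came mostly from Krt7, which was 16.9-fold higher there than at 0 weeks, while Krt19 was 4.98-fold lower. Up to 30.4% of the spots neighbouring the Krt7 probe stood apart on any array. None of the 8 endothelial markers was past 2-fold in these comparisons, with sums of 7.86, 9.77, 9.03 and 7.87. Of the 8 macrophage markers 6 were higher at 10 weeks and 6 at 15 weeks against 0 weeks, not all of them the same genes. The macrophage sums were 8.15, 14.8, 16.0 and 19.4. Hepatocyte markers summed to 839, 718, 794 and 589, with 2 of 8 lower at 15 weeks. The part of these markers in the collagen differences was not tested.

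Other tissues that can come along with a liver sample were also looked for. Of the 5 adipocyte markers, Adipoq, Plin1 and Retn were above background at 5 weeks only and Lep on no array. Cfd was 18.8-fold, 20.6-fold and 16.9-fold higher at 5, 10 and 15 weeks than at 0 weeks, and it made up most of the sums, which were 0.12, 1.94, 2.03 and 1.67. Of the 5 mesothelial markers Upk3b, Lrrn4 and Upk1b were above background on no array, and Msln on all 4. Wt1 was below background at 0 weeks and stood at -5.20, -5.89 and -4.14 after, 3.37-fold higher at 15 than at 10 weeks. The mesothelial sums were 0.102, 0.171, 0.129 and 0.165. The part of these tissues in the collagen differences was not tested.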

How the data were processed

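Per the labels' protocols, total RNA from frozen liver was amplified, labelled with the dye Cy3 and put on 1-colour Agilent arrays. Per the file headers, Feature Extraction 10.7.3.1 gave each spot a processed intensity with background subtracted, on a linear scale, and probe positions are in mm9. The authors also deposited a table of intensity, which equals the processed signal divided by each array's median over non-control spots. No genome aligner applies.

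From the deposited intensity, log2 values were taken minus each array's 75th percentile over probes above background on all 4 arrays, since only a minority of spots were. Control spots and outlier spots were left out, spots of a probe were averaged, and a gene was represented by its probe of highest mean. Gene names came from RefSeq by accession for 27509 probes, by symbol for 3549, by older symbol for 404, and from the file for 24219. A gene counted as measured when above background on both arrays and as called at 2-fold. No p-value was computed. Each member above background on at least 1 array is named, and of other lists up to 4 genes with the largest difference, plus Serpinh1, Lox, Acta2 and Lrat. A few other list genes are named where they limit a count or a sum. The values of 1 listed gene are not reported here. Members and lists were chosen with earlier results of these data known. The calling was tested on simulated data.

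Alternatives were the 75th percentile over all spots, the array median, quantile normalization, normexp (limma 3.58.1, R 4.3.3, offset 50) and no filter on dim probes. Others were the mean of a gene's probes, a 1.5-fold threshold, leaving out spots where many neighbouring spots stood apart, and type IV alone for the basement membrane class. The other steps used python 3.11.15, pandas 2.3.3 and numpy 2.4.6. The number of arrays limits the precision.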

Additional observations from a re-analysis of the deposited data

How the results depend on the processing

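The count of 11 collagen genes higher at 15 against 0 weeks stayed within 1.5 times of itself under every alternative tried. The 27 collagen differences called kept their sign in all 189 alternative values, but part of this was fixed in advance. Dropping the filter or leaving out spots whose neighbours stood apart could not change these values. Averaging probes could not do so for genes with 1 probe. The 75th percentile of all spots and the array median shift every gene of a comparison alike. They put the median gene between -0.25 and -0.01, a shift too small to reverse the sign of a called difference. Counts of lower genes moved more. At 15 against 0 weeks, 0 lower became 2 with the 75th percentile of all spots, 1 each with the array median, quantile normalization, no filter on dim probes and the mean of probes, and 3 at 1.5-fold. The call of Col4a1 as lower at 10 weeks and that of Col4a5 at 5 weeks were lost with normexp. Over all genes normexp also left fewer calls. There were 117 lower in place of 249 at 5 weeks. At 10 weeks there were 121 lower in place of 263, and 228 higher in place of 499. At 10 weeks, 3 lower became 5 with the array median or the mean of probes, 7 without the filter and 6 at 1.5-fold. Of the 5 with the mean of probes, Col4a6 and Col6a2 took in second probes below background at 10 weeks. In the same comparison 1 higher became 0 with normexp and 2 at 1.5-fold. At 5 weeks, 0 higher became 1 without the filter and 2 at 1.5-fold, and 1 lower became 0 with normexp. At 15 against 10 weeks, 11 higher and 0 lower became 17 and 4 without the filter.

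Some medians changed sign. Without the filter they were 0.05 for all collagens, 0.10 for fibrillar and 0.07 for the remaining types at 10 weeks, and -0.26 and -0.23 for the remaining types at 15 against 0 and 10 weeks. The remaining types gave -0.05 with the 75th percentile of all spots and -0.01 with quantile normalization at 15 against 0 weeks, and the basement membrane class gave -0.09 with normexp. Of medians that began under 0.10 in size, those at 5 weeks were 0.12 for all collagens, 0.10 for fibrillar and 0.12 for the remaining types without the filter, and type VI at 10 weeks was -0.28 with the mean of probes and -0.07 with the array median. Without the filter the median of all genes was 0.11, 0.08, -0.21 and -0.20 in the 4 comparisons, so genes below background shared a shift. The cause of the other changes was not tested.

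The 75th percentile of all spots put the median gene at -0.25 at 15 against 0 weeks, and the share of all calls that were higher went from 71.1% to 53.4%, and from 70.6% to 49.3% against 10 weeks. Of the collagen calls at 15 against 0 weeks, 81.8% were higher under that scaling and 91.7% under the array median and under quantile normalization, against 100%. With the array median the share of all calls that were higher was 51.6% in place of 62.7% at 5 weeks, 54.3% in place of 65.5% at 10 weeks and 60.6% in place of 71.1% at 15 weeks. No paired analysis was possible because each time point has 1 array, and for that reason no replicate could be left out. Signal over background limits the 20 genes never above it and the 5 known partly by bounds.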
